A study of Saccharomyces cerevisiae with 16 samples.

Results

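The genes examined encode the nuclear part of the oxidative phosphorylation machinery of the budding yeast Saccharomyces cerevisiae. They were chosen by name, as every gene whose symbol is SDH, QCR, COX or ATP followed by a number, with an optional A or B, and without COX5B. The rule found 51 of the 5449 S. cerevisiae genes tested, each with 1 probe set: 8 SDH, 6 QCR, 18 COX and 19 ATP genes. Of these, 31 encode structural subunits and 20 encode factors that assemble the complexes or help express their parts. A gene table of the organism held 58 genes with such names. The other 7 were not analysed here: ATP6, ATP8, COX1, COX2 and COX3, which are encoded in mitochondrial DNA, and COX26 and SDH9.

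The study compared strains that carry equivalent substitutions in different subunits of CCT, the ring-shaped chaperonin that folds actin, tubulin and other proteins. Transcript levels came from 16 Affymetrix arrays of the Yeast Genome 2.0 type, with 2 arrays per strain and 8 strains. Cultures were diluted from overnight growth and harvested in growth at the same optical density, and total RNA was copied into biotinylated RNA. Nothing in the labels says whether the 2 arrays of a strain came from separate cultures. The p-values given here therefore measure the spread between arrays of the same label, whatever its source. That spread is not only small noise, because it includes large differences in marker genes. The URA3 probe set was at 8.07 and 11.95 (log2) on the 2 WT arrays and at 11.91 and 7.23 on the 2 MA2 arrays. What share of the spread is technical was not tested.

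All 8 strains share the mutant background leu2, leu2-3, trp1, gal2 and ura3-52 together with the protease alleles pep4-3, prb1-1122 and prc467. The wild type (WT) has CCT6 fused to the calmodulin-binding peptide tag CBP and marked with KanMX4. The mutants carry an aspartate-to-glutamate substitution marked with KANMX4: D96E in CCT1 (strain MA1), D90E in CCT2 (MA2), D91E in CCT3 (MA3), D117E in CCT5 (MA5), D96E in CCT7 (MA7) and D98E in CCT8 (MA8). In these 6 mutants the CBP tag on CCT6 is marked with URA3. In MA6 the substitution, D89E, lies in the tagged CCT6 itself, and no URA3 is listed. WT therefore differs from 6 of the mutants in the URA3 marker as well as in CCT, and those effects cannot be told apart.

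In respiring yeast, complex II (succinate dehydrogenase, SDH) passes electrons from succinate to ubiquinone. Complex III (QCR genes) passes them on to cytochrome c, and complex IV (cytochrome c oxidase, COX genes) hands them to oxygen. The ATP synthase (ATP genes) uses the proton gradient so built to make ATP. In yeast fermenting glucose many of these genes are repressed, and the transcription factor complex of HAP2, HAP3, HAP4 and HAP5 raises their transcription when glucose runs low or a non-fermentable carbon source is used.

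Before any comparison, the marker genes were set against the labels. The URA3 probe set lay between 7.23 and 8.12 (log2) on 4 arrays, WT replicate 1, MA2 replicate 2, MA5 replicate 1 and MA8 replicate 1, and between 11.70 and 12.05 on the other 12. On 6 arrays this opposed the genotype in the label: WT replicate 2, both MA6 arrays, MA2 replicate 2, MA5 replicate 1 and MA8 replicate 1. CCT2 was low on MA1 replicate 1 (10.64) and MA6 replicate 1 (10.47) against a 16-array median of 12.97, and CCT3 was low on MA1 replicate 2 (10.16) and MA6 replicate 2 (10.22) against 12.27. CCT6 was low on the 4 arrays with low URA3, by 0.75 to 1.23 below its median, and the lowest CCT5 values were 12.78 for MA7 replicate 1 and 12.83 for MA2 replicate 1. Whether labels or columns were exchanged was not tested, so a value against WT holds for the arrays so labelled and not with certainty for the strains. Strain names below are therefore those of the labels, no array was moved to another group, and each result is also given array by array. All 51 members lay above the 95th percentile of the probe sets for the fission yeast S. pombe, which have no intended target here, on every array; that percentile was 5.31 to 5.54. Levels are log2 values relative to the whole array, so levels of different genes were not compared with each other; a deviation is a gene's log2 level on 1 array minus its own median over the 16 arrays.

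As a group the members varied about as much as other genes. Their median SD over the 16 arrays was 0.137 on the log2 scale, and the median over all 5498 tested probe sets was also 0.137 when rounded. The complexes differed in this respect: the median SD was 0.196 for SDH, 0.144 for COX, 0.123 for QCR and 0.085 for ATP genes. The members were nevertheless not evenly placed across the arrays. MA6 replicate 1 held the highest value of 25 of the 51 members (49%), against 19% of all tested probe sets. WT replicate 1 held the lowest value of 15 members (29.4%), against 12.7% of all, and the highest value of none, against 14.8% of all.

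**Figure D1:**
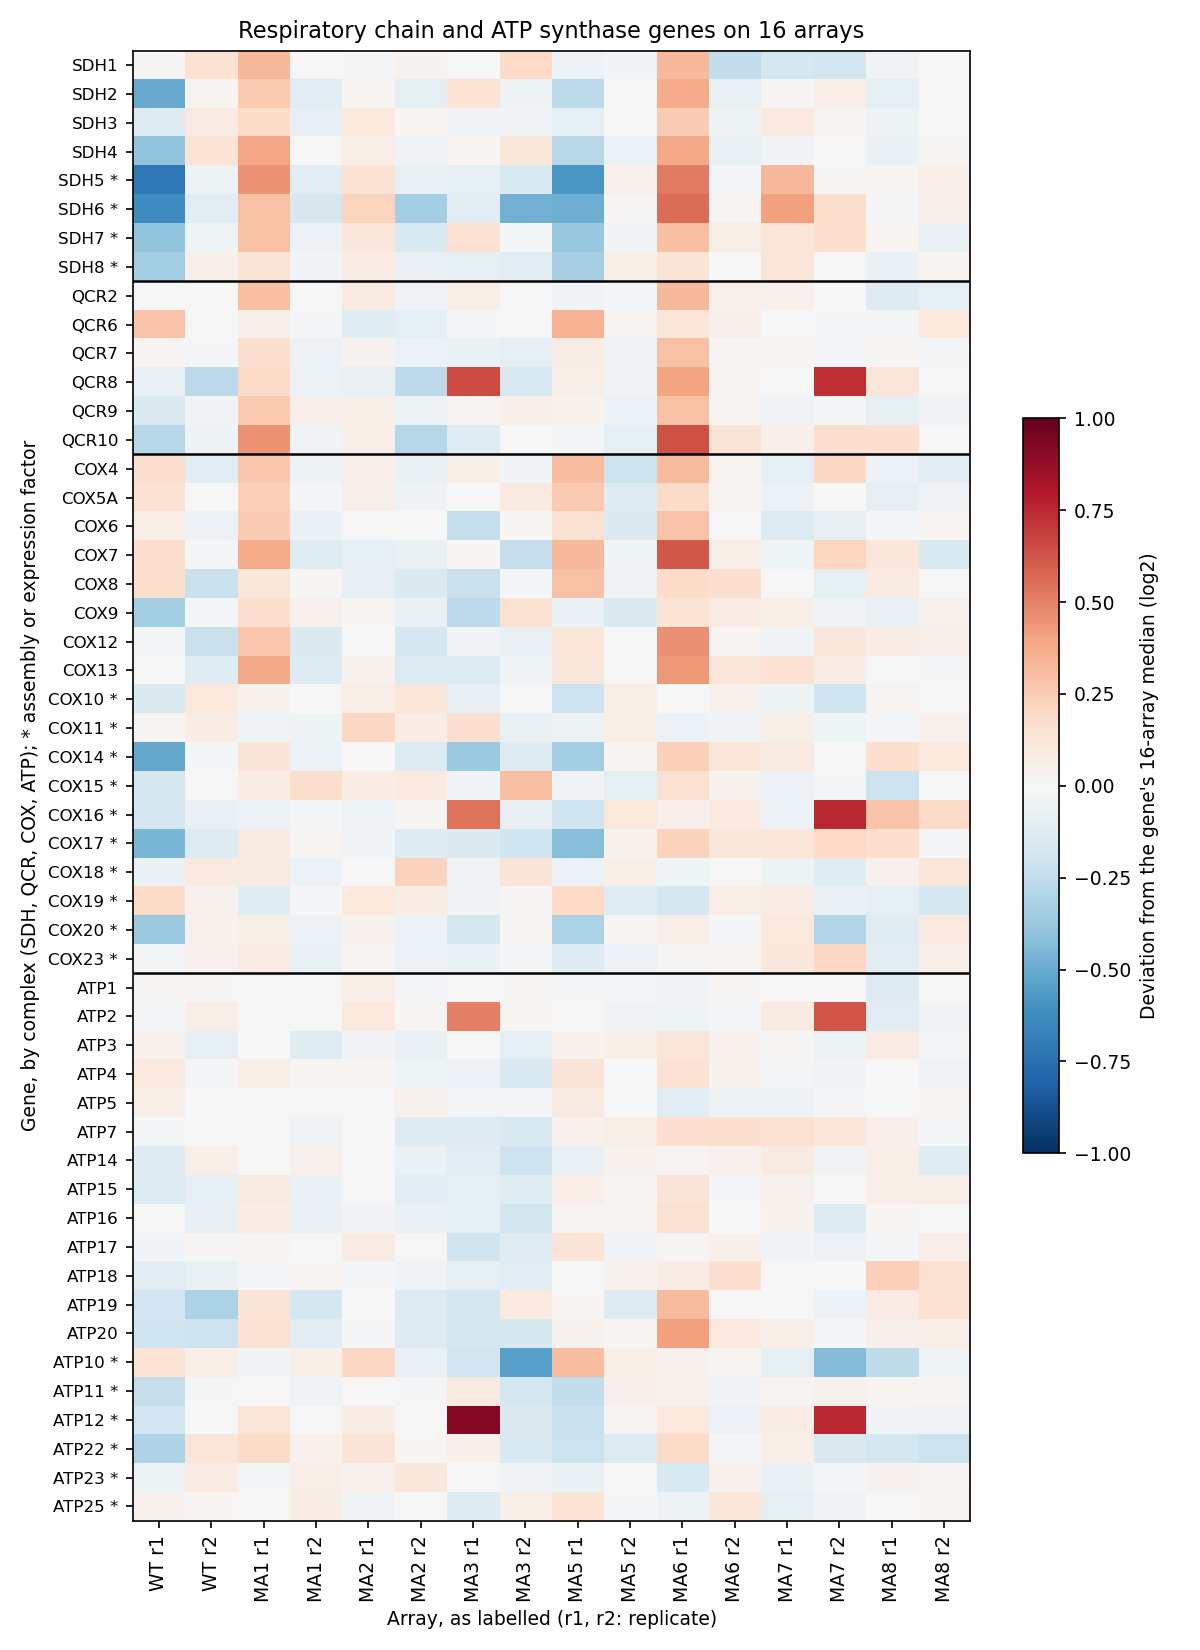
Deviation of each of the 51 member genes (rows, by complex and role) from its own median over the 16 arrays (columns, as labelled), in log2 units on the colour scale. The columns of MA1 replicate 1 and MA6 replicate 1 are mostly above the median, the SDH rows are low on WT replicate 1 and MA5 replicate 1, and 4 rows stand out on MA3 replicate 1 and MA7 replicate 2.

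On MA1 replicate 1, 40 members (78.4%) lay above their own median, against 48.1% of all tested probe sets, and the median deviation was 0.11. On MA6 replicate 1 it was 43 members (84.3%), against 51.3% of all, with a median deviation of 0.15. More than 0.5 above their medians there were 4 members (7.91% of all tested probe sets were), SDH5, SDH6, QCR10 and COX7, and on MA1 replicate 1 there were none (6.97% of all). On the second array of each label the pattern differed. MA1 replicate 2 had 17 members above (33.3%; all tested 46%) and a median of -0.03, and MA6 replicate 2 had 37 above (72.5%; all tested 53.5%) at a median of only 0.03. So the higher level on the first arrays of MA1 and MA6 was not shared in size by their labelled partners.

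Succinate dehydrogenase varied most. It has 4 subunits: the flavoprotein SDH1, the iron-sulfur protein SDH2 and the membrane anchors SDH3 and SDH4. All 8 SDH genes lay above their medians on MA1 replicate 1 (median deviation 0.29) and on MA6 replicate 1 (0.34). All 8 lay below on MA5 replicate 1 (-0.30, where 45.5% of all tested probe sets were below), and 7 of 8 lay below on WT replicate 1 (-0.40; 47% of all below), the exception being SDH1. More than 0.5 below their medians on WT replicate 1 were SDH2, SDH5, SDH6 and COX14, 4 members against 7.44% of all tested probe sets, and on MA5 replicate 1 it was SDH5 alone, against 7.22% of all. As shares of the 51 members these counts are near or under the background. On the other 12 arrays the SDH median stayed between -0.07 and 0.11.

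The 4 assembly factors of complex II showed the widest swings, with WT replicate 1 at a median of -0.51, MA5 replicate 1 at -0.43, MA1 replicate 1 at 0.29 and MA6 replicate 1 at 0.41. SDH5, which attaches the flavin to SDH1, had a median level of 10.94, a lowest value of 10.22 on WT replicate 1, 10.36 on MA5 replicate 1, 11.39 on MA1 replicate 1 and a highest value of 11.46 on MA6 replicate 1. The lowest and highest arrays thus differed 2.36-fold. SDH6 and SDH7 are small proteins that protect the iron-sulfur protein during assembly. SDH6 ran from 9.23 on WT replicate 1, with 9.36 on both MA5 replicate 1 and MA3 replicate 2, through a median of 9.84 to 10.25 on MA7 replicate 1 and 10.40 on MA6 replicate 1, a 2.26-fold range. SDH7 ran from 10.86 on WT replicate 1 and 10.88 on MA5 replicate 1 to 11.55 on MA1 replicate 1 and 11.56 on MA6 replicate 1. SDH8, a chaperone of the flavinated SDH1, was lowest on the same pair of arrays (both 11.33, median 11.67). Most of the 22 listed assembly factors outside the naming rule were low there too. All but SCO1, RCF2 and OXA1 lay below their medians on WT replicate 1 (47% of all tested probe sets). On MA5 replicate 1 it was all but RCF1, RCF2 and OXA1 (45.5% of all). Their deviations ran from -0.52 (SCO2) to 0.27 (RCF2) on WT replicate 1 and from -0.61 (CYC3) to 0.33 (RCF2) on MA5 replicate 1.

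Among the subunits the same arrays were at the ends for SDH2, SDH3 and SDH4. SDH2 was 10.39 on WT replicate 1 and 11.26 on MA6 replicate 1, and SDH4 was 11.20 and 11.98. SDH3 moved least of the complex, with an SD of 0.10 and a range from 11.92 to 12.31. SDH1 departed from the others: its lowest value, 10.49, was on MA6 replicate 2, while WT replicate 1 (10.75) was close to its median of 10.74.

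**Figure D2:**
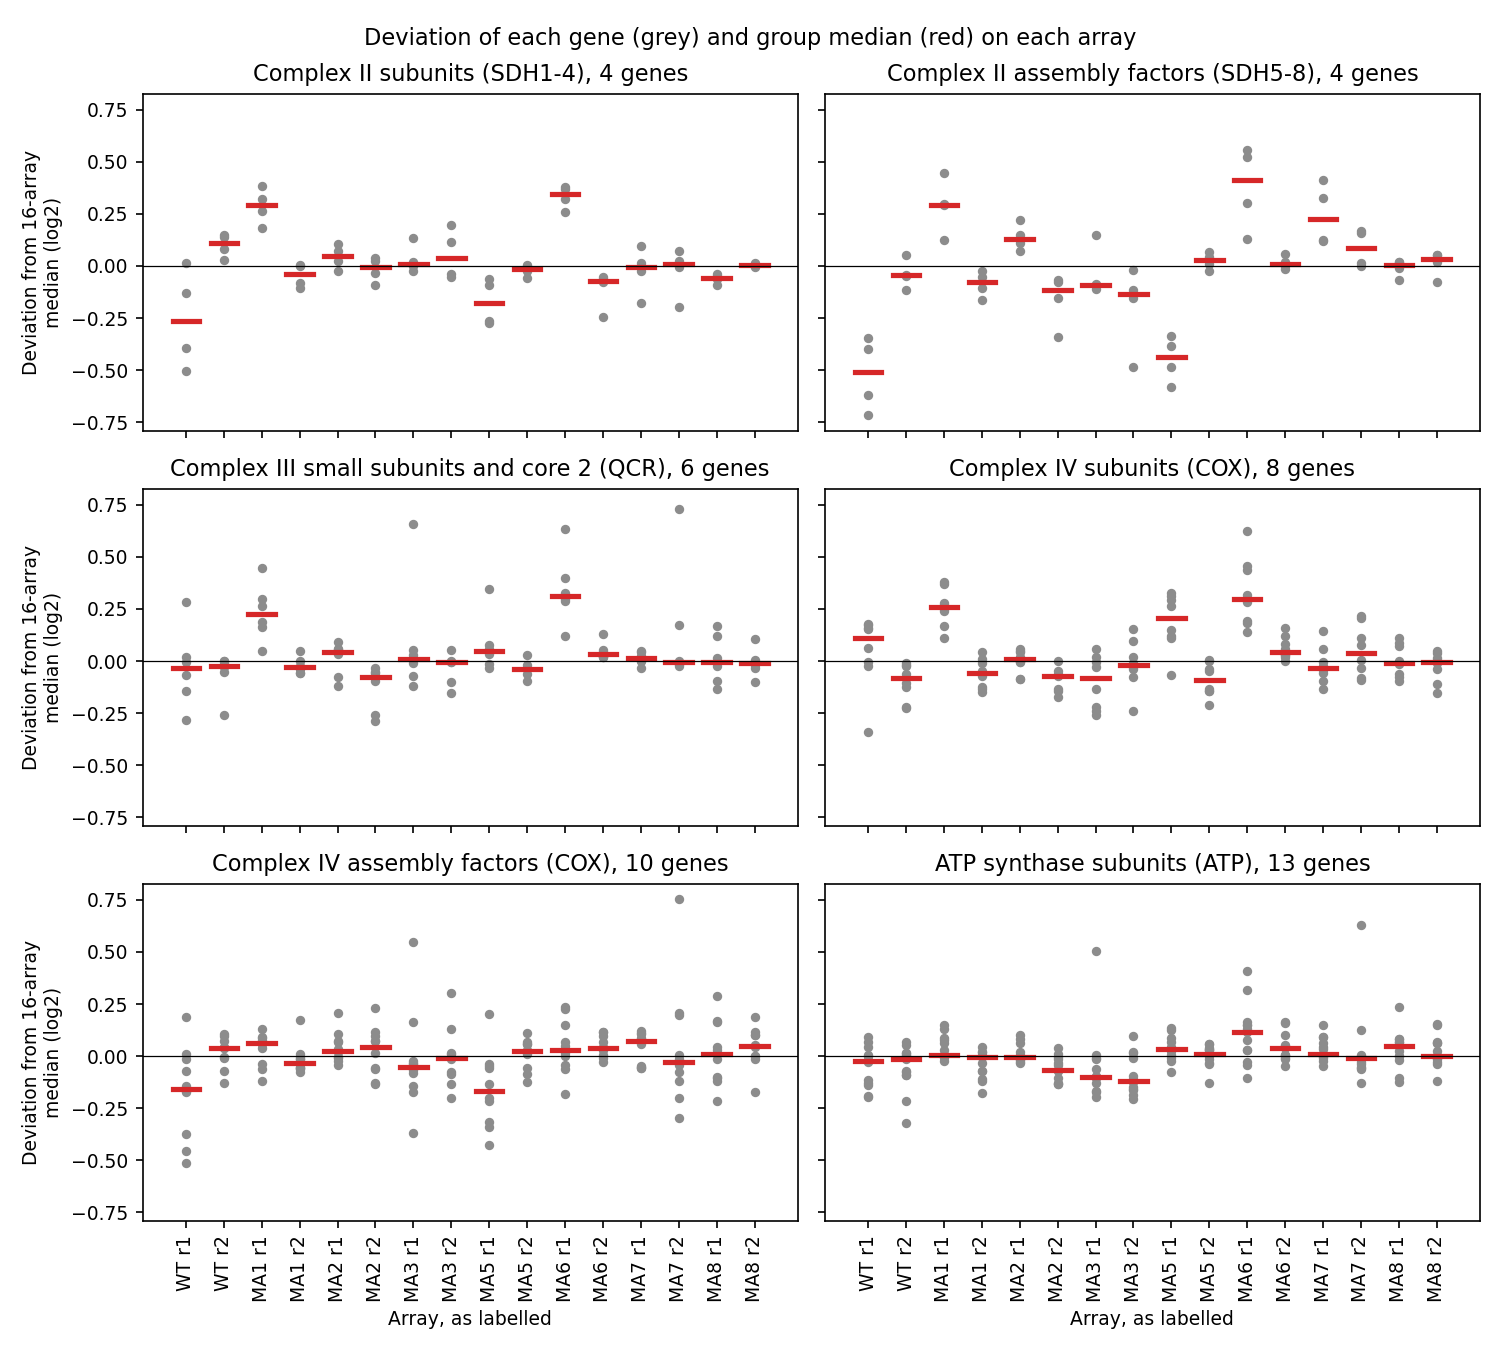
Deviation from the 16-array median (log2, vertical axis) of each gene (grey points) and the median of its group (red) on each array (horizontal axis, as labelled), in 6 panels for the subunits and assembly factors of complexes II and IV, the QCR genes and the ATP synthase subunits. The complex II medians are low on WT replicate 1 and MA5 replicate 1, where the median of the complex IV subunits is above 0 although 1 of them, COX9, is at -0.34 on WT replicate 1; the median of the ATP synthase subunits stays between -0.12 and 0.12, with single genes from -0.32 to 0.63.

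Complex III is represented by QCR2, a core protein, and by the small subunits QCR6 to QCR10. All 6 QCR genes lay above their medians on MA1 replicate 1 (0.23), on MA6 replicate 1 (0.31) and, by little, on MA6 replicate 2 (0.03). QCR10, an accessory subunit, had a median of 10.89, its lowest values of 10.61 on MA2 replicate 2 and WT replicate 1, 11.34 on MA1 replicate 1 and 11.53 on MA6 replicate 1. QCR7, which binds next to cytochrome b, moved least (SD 0.10), from 12.77 to 13.17, again highest on MA6 replicate 1. QCR6, the acidic hinge protein, had another order. It was highest on MA5 replicate 1 (12.26) and WT replicate 1 (12.20), the arrays where complex II was low, and lowest on the MA2 arrays (11.79 and 11.81). QCR8 lies on chromosome X and is described below with the other genes of that chromosome.

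Complex IV split by role. The 8 subunits analysed surround the catalytic core and stabilise or regulate it. All 8 lay above their medians on MA1 replicate 1 (0.26), MA6 replicate 1 (0.30) and MA6 replicate 2 (0.04). Their median was 0.21 on MA5 replicate 1, with 7 of 8 above (54.5% of all tested probe sets), and 0.11 on WT replicate 1, with 5 of 8 above (53%). These are the arrays on which complex II was lowest.

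COX7, a subunit found in the membrane part of the enzyme, had a median of 11.54 and was highest on MA6 replicate 1 (12.16), then on MA1 replicate 1 (11.91) and MA5 replicate 1 (11.87), and lowest on MA3 replicate 2 (11.30). COX5A, the aerobic form of subunit V, was highest on MA5 replicate 1 (12.66) and MA1 replicate 1 (12.63). COX8 was likewise highest on MA5 replicate 1 (12.15). COX9 differed from these subunits on WT replicate 1, which held its lowest value (11.87, median 12.22).

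The 10 assembly factors of complex IV were not raised on these arrays. WT replicate 1 had 2 of 10 above and a median of -0.16, MA5 replicate 1 had 1 of 10 above and a median of -0.17, so that the 18 COX genes together gave -0.02 and -0.04 there. COX14, which in yeast links synthesis of the core subunit to assembly, was 11.09 on WT replicate 1, 11.23 on MA3 replicate 1 and 11.27 on MA5 replicate 1, against a median of 11.60 and a highest value of 11.84 on MA6 replicate 1. COX17, a copper chaperone of the intermembrane space, had values of 11.64 (WT replicate 1) and 11.67 (MA5 replicate 1), against a median of 12.10 and a highest value of 12.33 on MA6 replicate 1. COX20, a chaperone of a mitochondrially made subunit, followed the same order at its low end (10.18 and 10.23, median 10.55). COX19, another protein of the copper pathway, ran the other way, with its highest values on MA5 replicate 1 (10.11) and WT replicate 1 (10.10) and its lowest on MA6 replicate 1 (9.73). COX11, which delivers copper to the core, moved least (SD 0.083), from 9.63 to 9.92.

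**Figure D3:**
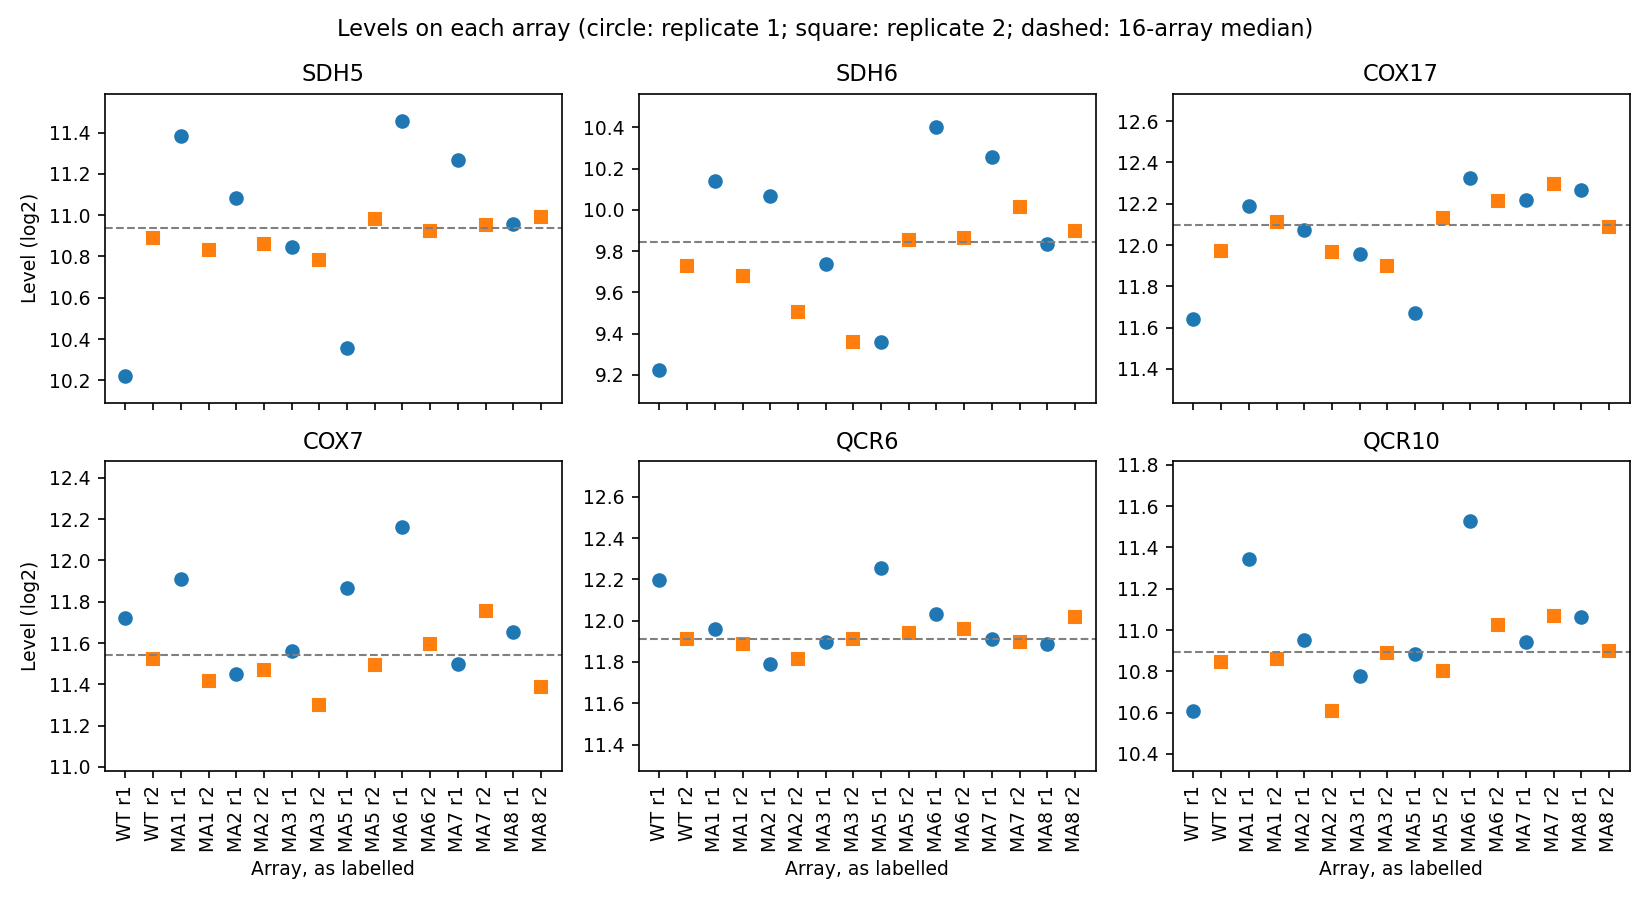
Levels (log2, vertical axes, as deposited) of SDH5, SDH6, COX17, COX7, QCR6 and QCR10 on each of the 16 arrays (horizontal axis), with circles for replicate 1, squares for replicate 2 and the 16-array median as a dashed line. SDH5, SDH6 and COX17 are lowest on WT replicate 1 and MA5 replicate 1, QCR6 is highest there, and COX7 and QCR10 are highest on MA6 replicate 1.

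The 13 ATP synthase subunits moved least. Their median deviation ranged from -0.12 on MA3 replicate 2 to 0.12 on MA6 replicate 1. ATP1, the alpha subunit of the catalytic head, had the smallest SD of all members (0.038) and stayed between 13.57 and 13.76. The largest deviations off chromosome X belonged to ATP20 and ATP19, accessory proteins of the membrane part. ATP20 had a median of 11.62 and ran from 11.40 on WT replicate 2 to 12.03 on MA6 replicate 1, and ATP19 had a median of 11.52 and ran from 11.20 on WT replicate 2 to 11.84 on MA6 replicate 1. Among the 6 assembly and expression factors, ATP10, which acts on a mitochondrially encoded membrane subunit, ran from 6.65 on MA3 replicate 2 and 6.76 on MA7 replicate 2 to 7.50 on MA5 replicate 1, around a median of 7.19. It was the 1 member more than 0.5 below its median on MA3 replicate 2, as were 0.855% of all tested probe sets. ATP22, needed to translate such a subunit, was lowest on WT replicate 1 (9.58) and highest on MA6 replicate 1 (10.08).

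Some measures other than the member genes moved with the same arrays. The median deviation of the stress genes HSP12, HSP26 and CTT1 came to -1.26 for WT replicate 1, -1.51 for MA5 replicate 1, 0.74 for MA1 replicate 1 and 0.93 for MA6 replicate 1. It was also 0.64 on MA2 replicate 1 and 0.62 on MA7 replicate 1, where the SDH medians were 0.09 and 0.11. The 3 genes did not all rise on the first arrays of MA1 and MA6. HSP12 deviated by 1.35 and 1.33 there and CTT1 by 0.74 and 0.93, but HSP26 by -0.24 and -0.03. Of the 6 control genes with probe sets at both ends of the transcript, SPT15 had its lowest 3′ minus 5′ differences for WT replicate 1 (1.37) and MA5 replicate 1 (1.21), against 1.54 and 1.64 for the first arrays of MA1 and MA6. WBP1 was lowest for MA5 replicate 1 (1.36), with 1.55 for WT replicate 1. In none of the 5 other than SPT15 were both arrays the lowest pair. ACT1 was 0.44 and 0.42 for WT replicate 1 and MA5 replicate 1, in a range of 0.38 to 0.48 over the 16 arrays, TDH1 was 0.37 and 0.38, among its highest values, RIP1 was 0.25, its lowest, and 0.31, and SRB4 was 1.98 and 1.99, low in its range, with its lowest value of 1.91 on MA5 replicate 2. The part of growth state or RNA quality in the deviations of complex II and complex IV was not tested.

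A separate pattern followed chromosome position. Over the 316 tested genes of chromosome X, the median deviation was 0.72 on MA3 replicate 1 and 0.77 on MA7 replicate 2, or 1.64-fold and 1.71-fold, with 97.2% of them above their own medians on each; on the other 14 arrays it was between -0.03 and 0.02. Of the members, 4 lie on this chromosome: ATP2, the catalytic beta subunit; ATP12, an assembly factor that acts on the alpha subunit; QCR8, a small subunit next to cytochrome b; and COX16, an assembly factor of complex IV. They were the 4 members more than 0.5 above their medians on MA3 replicate 1 (7.84% of members; 5.38% of all tested) and the 4 on MA7 replicate 2 (5.67% of all tested).

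ATP2 lay at 13.79 on MA3 replicate 1 and 13.91 on MA7 replicate 2, and between 13.18 and 13.38 on the other arrays. Its partner in the catalytic head, ATP1, did not move with it: its deviations there were 0.01 and 0.00, those of ATP2 0.50 and 0.63. The log2 level of ATP2 minus that of ATP1 was also taken relative to the median of this difference over all arrays. On this measure the difference was 0.49 on MA3 replicate 1 and 0.62 on MA7 replicate 2, and at most 0.08 in size on the other 14. ATP12 lay at 12.43 and 12.26, and at most at 11.63 elsewhere. Its difference from ATP11, the assembly factor that acts on the beta subunit, was 0.79 and 0.67 on the same measure. QCR8 lay at 12.45 and 12.53, with 12.20 on MA6 replicate 1 as the next value. Its difference from QCR7 on that measure was 0.73 and 0.75. COX16 lay at 10.71 and 10.92, against a next value of 10.46 on MA8 replicate 1. Each of the 4 genes had these as its highest arrays, while their labelled partners, MA3 replicate 2 and MA7 replicate 1, deviated by at most 0.15 in size.

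**Figure D4:**
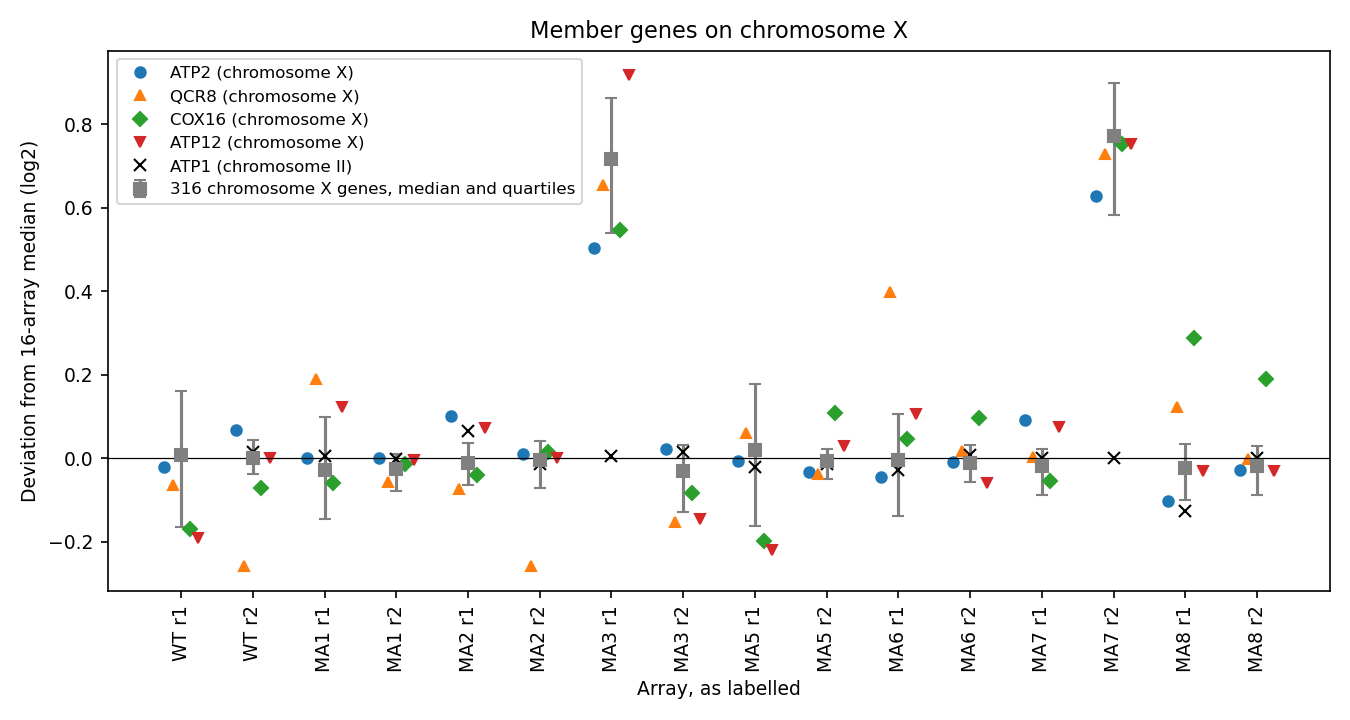
Deviation from the 16-array median (log2, vertical axis) on each array (horizontal axis) for the 4 member genes on chromosome X, with the median of the 316 tested genes of that chromosome and with ATP1, a gene of another chromosome, for comparison. ATP2, ATP12, QCR8 and COX16 lie high with the chromosome on MA3 replicate 1 and MA7 replicate 2, and ATP1 does not.

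The comparison the design implies is each mutant against WT. In limma's fit with Benjamini-Hochberg adjustment, 0 of the 51 members and 0 of the 5498 tested probe sets (0%) were called at an adjusted p under 0.05 in any of the 7 mutants, in the mean of the mutants against WT or in the test of differences among the mutants. The smallest adjusted p of any member was 0.40, in MA6. All these comparisons share the same 2 WT arrays, which themselves differed by 0.67 in SDH5, so their values are set side by side and are not independent.

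At an unadjusted p under 0.05, 11 members were higher in MA6, where 4.57% of all tested probe sets were higher at that level, and none was lower (6.98% of all). They were SDH6, SDH7, QCR9, QCR10, COX14, COX17, ATP7, ATP15, ATP18, ATP19 and ATP20. In MA8, 6 members were higher (1.47% of all) and none lower (2.58%): COX14, COX17, ATP15, ATP18, ATP19 and ATP20. In MA7, SDH6, COX17 and ATP7 were higher (2.07% of all) and ATP10 lower (6.89%). In MA1, QCR9 and COX17 were higher (1%) and none lower (3.13%). In MA3, ATP10 was lower (4.38%) and none higher (0.309%). In MA2 none was higher (0.218%) or lower (0.527%), nor in MA5 (0.218% and 0.109%). The mean of the mutants gave COX17, ATP18, ATP19 and ATP20, all higher (0.982% of all), and none lower (3.71%).

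None of these counts survives the correction over all tested probe sets, and several rest on single arrays. Without MA6 replicate 1, 3 members were at an unadjusted p under 0.05 in MA6, and without MA6 replicate 2 there were 18. In MA1 the counts were 0 without replicate 1 and 11 without replicate 2. In MA7 none was left without MA7 replicate 2, and in MA8 2 were left without MA8 replicate 1. Without WT replicate 2 the counts were 6 in MA2 and in MA3 and 9 in MA7. Without the 6 arrays whose URA3 opposes the label, WT being then 1 array, there were 10 members in MA1, 8 in MA7, 6 in MA2, 5 in MA3, 4 in MA8, 3 in MA5 and 9 for the mean of the mutants.

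The median log2 change of the 51 members was 0.17 in MA6, 0.09 in MA1, 0.06 in MA7, 0.05 in MA2, 0.03 in MA8, 0.03 in MA5 and 0.01 in MA3, while the median over all tested probe sets lay between -0.05 and 0.00. Both arrays lay above both WT arrays for 21 members in MA6 (18.4% of all tested) and below both for 3 (24.2%). The counts above were 19 in MA7 (14.2%), 13 in MA8 (14.6%), 12 in MA1 (9.04%), 9 in MA5 (6.53%), 8 in MA2 (8.04%) and 4 in MA3 (4.78%). The counts below were 6 in MA7 (26%), 7 in MA8 (22.7%), 5 in MA1 (22.6%), 4 in MA5 (5.46%), 3 in MA2 (17%) and 9 in MA3 (22.7%). As shares of the 51 members, the counts above were larger than the background in every strain and the counts below were larger only in MA5. The share above in MA3 (7.84%, against 4.78% of all) and the share below in MA5 (7.84%, against 5.46%) were near the background. Every strain was set against the same 2 WT arrays, so these shares are not independent of each other. By complex, the largest medians were those of the SDH genes, 0.33 in MA6, 0.32 in MA1 and 0.24 in MA7. These rest on WT replicate 1: without it they were 0.07, 0.05 and 0.01, and without WT replicate 2 they were 0.56, 0.55 and 0.47. In MA2, MA3 and MA8 the SDH median of 0.17, 0.13 and 0.16 turned to -0.03, -0.07 and -0.08 without WT replicate 1, and in MA5 it went from 0.01 to -0.18.

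**Figure D5:**
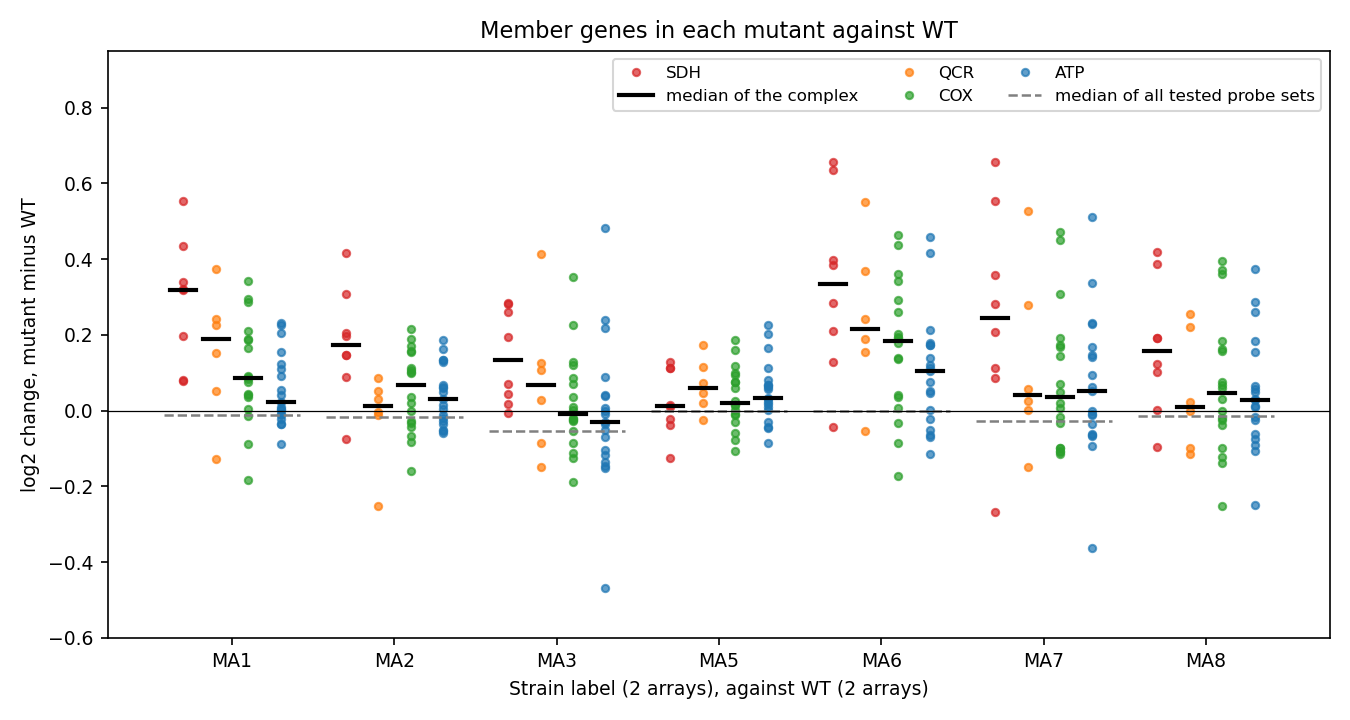
Log2 change of each of the 51 member genes (points, coloured by complex) in each mutant against WT (horizontal axis, 2 arrays per strain), with the median of each complex as a black bar and that of all tested probe sets as a dashed line. In MA6 and MA1 most points lie above 0, with medians over the 51 genes of 0.17 and 0.09, and no gene passed an adjusted p under 0.05 in any strain.

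The 2 members with the largest moderated t in each mutant were mostly ATP genes. ATP18, a small membrane subunit, was 11.42 and 11.46 on the WT arrays, 11.77 and 11.68 on the MA8 arrays and 11.61 and 11.70 on the MA6 arrays. Neither mutant overlapped WT. The change was 0.29 ± 0.06 (SE) in MA8, with an unadjusted p of 0.00074 and an adjusted p of 0.97 by limma, and 0.21 ± 0.06 in MA6 (adjusted p = 0.40). ATP20 was 11.42 and 11.40 in WT, 12.03 and 11.72 in MA6 and 11.65 and 11.63 in MA5, without overlap with WT, giving changes of 0.46 ± 0.11 in MA6 (limma adjusted p = 0.40) and 0.23 ± 0.11 in MA5. For ATP19 as for ATP20, the WT arrays were the lowest of the 16. ATP19 was 11.33 and 11.20 in WT and 11.60 and 11.68 in MA8, a change of 0.37 ± 0.14. ATP15, the epsilon subunit of the central stalk, was 12.49 and 12.54 in WT and 12.70 and 12.66 in MA5, a change of 0.17 ± 0.07.

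ATP7, a subunit of the stator stalk, was 11.79 and 11.81 in WT, 11.68 and 11.65 in MA3, 11.96 and 11.93 in MA7, and 11.98 and 11.97 in MA6. MA3 thus lay below WT and MA7 and MA6 above it, with changes of -0.13 ± 0.06, 0.15 ± 0.06 and 0.17 ± 0.06. ATP7 and ATP18 were the 2 members with an unadjusted p under 0.05 in limma's test among the mutants (0.0057 and 0.010; 2.67% of all tested probe sets), and the adjusted p was 0.89 for both. ATP10 was 7.32 and 7.26 in WT and 7.0 and 6.65 in MA3, a change of -0.47 ± 0.16.

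Outside the ATP synthase, COX17 was 11.64 and 11.97 in WT, 12.19 and 12.11 in MA1 and 12.22 and 12.29 in MA7, with changes of 0.34 ± 0.15 and 0.45 ± 0.15. Both mutants lay above both WT arrays, whose own difference of 0.33 was as large as the change in MA1. Without WT replicate 1 the changes were 0.18 and 0.29. QCR9, a small subunit of complex III, was 12.20 and 12.32 in WT and 12.61 and 12.40 in MA1 (0.24 ± 0.10). QCR6 was 12.20 and 11.91 in WT and 11.79 and 11.81 in MA2 (-0.25 ± 0.11), a change that was -0.11 without WT replicate 1. COX15, which takes part in making the heme of the oxidase, was 11.41 and 11.57 in WT and 11.65 and 11.67 in MA2 (0.17 ± 0.11).

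Arrays with the same label were seldom alike over these genes. The root mean square difference between the 2 arrays of a label over the 51 members was 0.10 in MA8 and 0.15 in MA2, and 0.24 to 0.27 in the other 6 strains. Over all tested probe sets it was larger in every strain: 0.14 in MA8, 0.22 in MA2 and 0.35 to 0.44 in the other 6. The median absolute difference gave another order. It was larger for the members than for all tested probe sets in MA1 (0.1481 against 0.1405), MA2 (0.0928 against 0.0862) and MA6 (0.1492 against 0.1426). In the remaining strains it was smaller for the members. The member that differed most was SDH5 in WT (replicate 1 lower by 0.67), MA1 (replicate 1 higher by 0.55) and MA5 (replicate 1 lower by 0.62), SDH6 in MA2, ATP12 in MA3, COX16 in MA7 and COX7 in MA6 and MA8. For 1 of the 16 arrays, MA8 replicate 1, the nearest other array over the members carried the same label. The pairs of arrays that were each other's nearest were MA5 replicate 2 and MA8 replicate 2 (0.083), WT replicate 2 and MA2 replicate 2 (0.090), WT replicate 1 and MA5 replicate 1 (0.12), MA1 replicate 1 and MA6 replicate 1 (0.11), MA2 replicate 1 and MA7 replicate 1 (0.097), and MA3 replicate 1 and MA7 replicate 2 (0.15).

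As a description over the 16 arrays, which share these differences between arrays, the genes of some complexes moved together. Among the 28 pairs of SDH genes the median Pearson correlation was 0.83, and all were above 0. It was 0.63 among the 28 pairs of COX subunits, all above 0, and 0.37 among the 15 pairs of QCR genes. It was 0.30 among ATP synthase subunits, 0.12 among COX assembly factors and -0.10 between COX subunits and COX assembly factors, against 0.02 for all pairs of tested genes. Among the 6 pairs of SDH subunits alone the median was 0.76, and all were above 0. The SDH genes and the subunits of complex IV were thus each alike among themselves. The complex IV subunits were not like the factors that assemble them.

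Other genes of the pathway were described from lists that the naming rule does not reach. Of 21 other subunits and electron carriers, 18 had a probe set, as did all 22 other assembly factors and all 9 regulators; none of these genes was called in any mutant. At an unadjusted p under 0.05, 5 of the 18 subunits and carriers were higher in MA6 (4.57% of all tested probe sets), and at most 1 was in any other strain. Of the 22 assembly factors, 4 were higher in each of MA6, MA7 (2.07% of all) and MA8 (1.47%), and 1 in MA1 (1%). None of the genes on these 2 lists was lower at that level. Of the 9 regulators, 1 was lower in each of MA2 (0.527% of all), MA3 (4.38%) and MA8 (2.58%), and none was higher in any strain.

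The rule leaves out 3 subunits of complex III. COR1, the other core protein, ran from 11.25 to 11.62, the iron-sulfur protein RIP1 from 11.60 to 12.09 and cytochrome c1, CYT1, from 10.40 to 10.89. COR1 had an SD of 0.094, RIP1 of 0.13 and CYT1 of 0.17. CYT1 was highest on WT replicate 1 (10.89) and MA5 replicate 1 (10.88), as QCR6 was. TIM11, subunit e of the ATP synthase, ran from 12.16 to 12.79 and was highest on MA6 replicate 1. CYC1, the main cytochrome c, lies on chromosome X and was 13.17 on MA3 replicate 1 and 13.35 on MA7 replicate 2, with 12.95 and 13.01 on MA1 replicate 1 and MA6 replicate 1 and a median of 12.45. PET191, an assembly factor of complex IV on the same chromosome, was 11.84 and 11.88 on MA3 replicate 1 and MA7 replicate 2, against a median of 10.92.

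The forms used at low oxygen had a different order. COX5B, the hypoxic form of subunit V, was low on WT replicate 1 (9.89), MA3 replicate 1 (9.87), MA5 replicate 1 (10.02) and MA7 replicate 2 (10.01), against a median of 10.61. The log2 level of COX5A minus that of COX5B was also taken relative to the median of this difference over all arrays. It was 0.84, 0.71, 0.83 and 0.57 on the arrays with low COX5B, in the order given. These arrays were picked by COX5B, which is itself a term of the difference. On the other 12 it ran from -0.56 on MA8 replicate 2 to 0.08 on MA2 replicate 1. CYC7, the minor cytochrome c, was lowest on WT replicate 1 (9.31) and MA5 replicate 1 (9.64) and highest on MA6 replicate 1 (11.49) and MA1 replicate 1 (11.11). DAN1, TIR1, ANB1 and HEM13, other hypoxic genes on the list, had their lowest values on 6 arrays, which were not all the lowest for AAC3 (-0.05 from its median on WT replicate 1). The median deviation of that list, which includes COX5B and CYC7, was -1.42 on MA3 replicate 1, -1.19 on MA7 replicate 2, -1.02 on WT replicate 1, -0.95 on MA6 replicate 1, -0.77 on MA1 replicate 1 and -0.69 on MA5 replicate 1. Complex II was high on 2 of these 6 arrays, low on 2 and within 0.02 of its median on the remaining pair. The part of oxygen supply in these values was not tested.

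Of the dehydrogenases and other proteins around the chain, some had wide ranges, such as NDE2 (6.25 to 8.75), STF2 (10.74 to 12.08) and those given next. Others did not, such as the lactate dehydrogenase DLD1 (11.92 to 12.42) and the ATP synthase inhibitor INH1 (9.07 to 9.51). SHH3, a homolog of the membrane anchor SDH3, had values of 8.64 (MA1 replicate 1) and 8.60 (MA6 replicate 1), against at most 6.24 on the other 14 arrays, a median of 5.20, and a level above the S. pombe 95th percentile on only 6 arrays. CYB2, the lactate dehydrogenase that reduces cytochrome c, was 9.58 and 9.60 on the same pair, against at most 8.47 on the others, and was lowest on WT replicate 1 (6.57). GUT2, the mitochondrial glycerol-3-phosphate dehydrogenase, was 10.81 and 10.74 on MA1 replicate 1 and MA6 replicate 1 and 10.52 on both MA3 replicate 1 and MA7 replicate 2, against a median of 9.85. NDE1, the external NADH dehydrogenase, was highest on the same 4 arrays (13.24 to 13.31) and lowest on WT replicate 1 (12.40) and MA5 replicate 1 (12.50). STF1, which stabilises the inhibitor of the ATP synthase, had its lowest values, 11.29 and 11.40, on those same 2 arrays, and its highest, 12.59 and 12.80, on the first arrays of MA1 and MA6.

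Of the regulators, HAP4, the activating subunit of the HAP complex, was highest on MA6 replicate 1 (10.57), MA1 replicate 1 (10.47) and MA7 replicate 2 (10.46) and lowest on MA2 replicate 2 (9.42), around a median of 9.78. The DNA-binding subunits HAP2, HAP3 and HAP5 had SDs of 0.08, 0.09 and 0.08. HAP1, the heme-dependent activator, was low on MA3 replicate 1 (10.14), MA7 replicate 2 (10.18), MA5 replicate 1 (10.31) and WT replicate 1 (10.33), against a median of 10.90.

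Over the 16 arrays, the tested genes outside the members whose level correlated most with the median deviation of the 31 subunits were PES4 (Pearson 0.95), SPO74 (0.95), PHO92 (0.94), ZNF1 (0.93) and DAL4 (0.93). All 5 were highest on MA6 replicate 1 and next highest on MA1 replicate 1. DAL4, the allantoin permease, lay 3.42 above its median on MA1 replicate 1 and 3.52 above on MA6 replicate 1, where the median deviation of the subunits was 0.16 and 0.26.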

How the data were processed

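The values are deposited log2 expression values per probe set of Affymetrix Yeast Genome 2.0 arrays, which the authors made with Partek and RMA, per the submitters' processing notes, which name no versions. RMA corrects background, normalizes between arrays and summarizes probes, so a shift common to all transcripts is invisible. Scanner files were not used here.

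Of 10928 probe sets, 5498 were paired with exactly 1 S. cerevisiae gene by the platform annotation, updated to the R64 gene table (12 symbols differed, 0 of them members), and were tested; 1746 were paired with S. pombe, 1 with several genes, and 3683 were unlisted. The build of the array's probes is not given in the labels, and coordinates are left out; chromosomes are those of the gene table. Arrays have no counting depth: the number of arrays, 2 per strain, limits the precision.

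Groups came from the sample titles. The 8 strain means were estimated jointly from all 16 arrays in R 4.3.3 with limma 3.58.1 (8 residual and 2.02 prior degrees of freedom), two-sided, with Benjamini-Hochberg adjustment over 5498 probe sets; calls needed an adjusted p under 0.05. Tested on simulated data for MA1 against WT with these 5498 probe sets, the fit recovered 79 of 100 genes changed by a log2 of 1 and 95 of 100 changed by 2, with 8 false calls. The largest change of a member in any mutant was 0.66, and recovery of changes of that size or smaller was not simulated. The simulated noise was independent between probe sets and every simulated label was correct. The arrays here share deviations over many genes, and 6 oppose their label in URA3, so these recovery rates may not hold for them. Replicate numbers did not pair samples: deviations of same-numbered arrays correlated above 0.1 for 7 of 28 pairs of strains (range -0.66 to 0.93). Tables and plots were made with Python 3.11.15, numpy 2.4.6, pandas 2.3.3 and matplotlib 3.10.9.

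The members, the pathway lists and the tests were chosen with earlier results of these data known. Genes named with values were, in each complex, the 3 members with the largest and the 1 with the smallest SD, in each mutant the 2 with the largest absolute t, the members on chromosome X, and the 5 outside genes most like the subunits; the others were chosen after their values were seen. Alternatives covered normalization, filters, fitted features, weights, moderation, replicate block, the arrays whose URA3 opposes the label and each array left out.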

Additional observations from a re-analysis of the deposited data

How the results depend on the processing

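Under quantile normalization, median centring, a filter on dim probe sets, all probe sets of the array, array weights, a trended prior, no moderation, 2 strains only, and the mean of a gene's probe sets, the calls stayed at 0 in every comparison. The fit with the replicate number as a block also gave 0 calls and changed no call. Leaving out each array in turn gave 0 to 0 calls. The median log2 change of the members then ranged from 0.043 to 0.20 in MA1, 0.0053 to 0.091 in MA2, -0.030 to 0.031 in MA3, -0.0056 to 0.076 in MA5, 0.074 to 0.24 in MA6, 0.025 to 0.12 in MA7 and 0.0042 to 0.081 in MA8. Without the 6 arrays whose URA3 opposes the label, WT, MA2, MA5 and MA8 are 1 array each, assumed to vary like the others, and MA6 could not be fitted. Then 1 probe set was called in MA1, MA2, MA3, MA5, MA7, MA8 and the mean of the mutants, and 0 members. It was URA3, whose difference follows from the choice of arrays. The members' median then became 0.11 in MA2 and 0.12 in MA7. With structural subunits only, the COX median was 0.11 on WT replicate 1, -0.083 on WT replicate 2, 0.26 on MA1 replicate 1, 0.21 on MA5 replicate 1, -0.089 on MA5 replicate 2 and 0.30 on MA6 replicate 1, and the ATP median was -0.066 on MA2 replicate 2, 0.12 on MA6 replicate 1 and 0.049 on MA8 replicate 1; fewer genes enter these medians. The ATP median was -0.053 on WT replicate 1 against the mean of the arrays, and under quantile normalization -0.065 on MA3 replicate 1, 0.055 on MA6 replicate 1 and -0.049 on MA7 replicate 2; the cause was not tested.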

Other observations

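The array also carries probe sets for S. pombe genes that share a name with a member, 36 in all. Their mean levels lay between 3.83 and 5.70. Only cox9, on 14 arrays, atp3, on 8, cox4, on 4, and atp2, on 1, exceeded the 95th percentile of all S. pombe probe sets.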
